A study of Homo sapiens with 4 samples.

Results

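The regions described here are H3K9la ChIP-seq regions found in the V2 peak list and not in the sg3 peak list. They were chosen by position in the called peaks: a V2 record on chromosomes 1 to 22 or X was taken when it shared no base with any sg3 record. Of 39258 V2 records on these chromosomes, 5402 were taken, which is 13.8% (95% confidence interval 13.4 to 14.1%), and since the rule fixes this count it is a description with no test. These V2-only regions covered 2.53 Mb of the 30.5 Mb in the V2 list. The other 33856 V2 records overlapped an sg3 record and are called shared V2 regions. In the other direction, 26214 of 55147 sg3 records (47.5%) overlapped no V2 record and are called sg3-only regions. The lists differ in length, and with the sg3 list cut to the V2 length by -log10 q, 9109 V2 regions (23.2%) had no sg3 counterpart.

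The study used KYSE30, an established line of oesophageal squamous cell carcinoma grown in DMEM with FBS, and its title names SIRT3 as an eraser of H3K9la. There were 4 samples, a V2 ChIP library, a V2 input library, an sg3 ChIP library and an sg3 input library, all from formaldehyde-fixed cells of the same line. The sources used here do not say what V2 and sg3 stand for, or whether either arm was 1 clone or a pool. Each arm gave 1 list, so a difference between lists has no replicate check, no p-value is given, and the exact Clopper-Pearson intervals cover counting error only. GEO attaches the V2 list to the input library of that arm, and the sources used here name neither the libraries behind each call nor their depth. A region missing from the sg3 list was not called there, which is not a measurement that the mark was absent. Among 25 genes of squamous epithelium, 21 had a V2 record and 24 an sg3 record in the body or within 1 kb of it. Over all 19974 protein-coding genes, 7509 had a V2 record and 11112 an sg3 record by the same count.

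H3K9la is histone H3 with a lactyl group on lysine 9. Lactyl groups are made from lactate by way of lactyl-CoA, are placed on histones by acyltransferases such as EP300, and are removed by deacylases of the HDAC and sirtuin families. Histone lactylation is found at promoters and enhancers of active genes. In ChIP-seq, DNA bound to the marked histone is enriched with an antibody, and a peak caller lists the stretches where reads pile up above background. SIRT3 is a sirtuin best known as a mitochondrial deacetylase.

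Few V2-only regions overlapped the promoter window at an annotated gene start. Sequences are shown for the 4 such regions with the highest -log10 q. Each is a RefSeq window of GRCh38.p14 that runs from 250 bases before to 50 bases after the start, read 5′ to 3′ on the strand of the gene, with capitals for the bases inside the V2-only region.
RBPJ, chr4:26320978-26321277, plus strand: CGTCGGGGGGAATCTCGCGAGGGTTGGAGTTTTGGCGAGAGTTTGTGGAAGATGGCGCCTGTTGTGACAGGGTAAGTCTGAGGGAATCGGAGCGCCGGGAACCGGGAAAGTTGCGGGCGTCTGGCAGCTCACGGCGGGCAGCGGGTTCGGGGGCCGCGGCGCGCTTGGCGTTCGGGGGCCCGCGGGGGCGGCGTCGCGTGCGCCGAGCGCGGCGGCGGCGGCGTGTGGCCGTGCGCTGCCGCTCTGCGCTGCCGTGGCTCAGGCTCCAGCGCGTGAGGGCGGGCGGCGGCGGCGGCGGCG
RAB35, chr12:120116704-120117003, minus strand: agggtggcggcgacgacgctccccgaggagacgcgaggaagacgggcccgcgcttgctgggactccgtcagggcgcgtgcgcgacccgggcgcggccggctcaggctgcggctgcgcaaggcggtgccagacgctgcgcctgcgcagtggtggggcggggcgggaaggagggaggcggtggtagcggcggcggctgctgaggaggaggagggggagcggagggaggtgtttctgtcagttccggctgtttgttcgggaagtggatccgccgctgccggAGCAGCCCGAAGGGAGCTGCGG
SNRK, chr3:43286290-43286589, plus strand: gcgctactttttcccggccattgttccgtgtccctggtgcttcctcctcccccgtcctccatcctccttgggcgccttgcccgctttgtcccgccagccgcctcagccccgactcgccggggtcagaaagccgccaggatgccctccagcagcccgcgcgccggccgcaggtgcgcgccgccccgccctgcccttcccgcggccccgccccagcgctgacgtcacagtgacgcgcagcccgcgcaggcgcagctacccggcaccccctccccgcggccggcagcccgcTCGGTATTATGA
WWP2, chr16:69762082-69762381, plus strand: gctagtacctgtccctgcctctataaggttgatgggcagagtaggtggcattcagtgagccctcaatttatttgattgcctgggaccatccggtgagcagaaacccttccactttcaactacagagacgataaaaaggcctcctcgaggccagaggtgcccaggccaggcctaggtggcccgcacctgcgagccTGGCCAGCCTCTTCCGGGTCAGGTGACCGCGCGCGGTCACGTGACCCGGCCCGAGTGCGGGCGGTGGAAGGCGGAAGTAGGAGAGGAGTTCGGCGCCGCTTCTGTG
The RBPJ window lay wholly inside its region, whereas the regions at RAB35 and SNRK reached only the last bases of the window and did not cover the start itself. The summits, where the pileup was highest, lay 62 bases after the start at RBPJ, 177 at RAB35, 324 at SNRK and 162 at WWP2. RBPJ is the DNA-binding factor of NOTCH signalling, RAB35 a GTPase of endocytic recycling, SNRK a kinase related to AMPK, and WWP2 a ubiquitin ligase. The RBPJ window is that of a start inside the gene, away from its outer ends.

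V2-only regions overlapped 38 promoter windows, belonging to 32 genes, against 3239 windows of 2608 genes for shared V2 regions and 2815 windows of 2440 genes for sg3-only regions. The 300-base windows held a median of 32 CG dinucleotides for V2-only regions, against 29 for shared V2 regions, 27 for sg3-only regions and 21 over all 22132 windows. The motif CCGGAA, the core bound by ETS factors, was found on either strand in 9 of the 38 windows (23.7%), RAB35 and WWP2 among them, against 29.5% of windows with shared V2 regions, 35.1% with sg3-only regions and 21.2% of all windows. The E-box CACGTG was in 2 of 38 (5.26%), WWP2 being 1, against 8.34% of all windows. The TEAD motif CATTCC was in 4 of 38 (10.5%) against 12.2%, and the AP-1 motif TGANTCA in 1 of 38 (2.63%) against 6.15%. These shares rest on 1 to 9 windows each, and some windows overlap each other or meet the same V2-only region. Among those with CATTCC, the windows at RPS6KA5 and DGLUCY cover nearly the same bases. Both strands were searched, and matches of CATTCC and CCGGAA can have letters in common.

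V2-only regions were narrower and weaker than the shared ones. Their width had a median of 424 bases (interquartile range 378 to 500, highest 1650), against 595 bases (452 to 909) for shared V2 regions and 487 bases for sg3-only regions. The fold enrichment, which the authors' peak caller gives as ChIP reads over local background at the summit, had a median of 4.56 in V2-only regions (3.68 to 5.49, highest 13.2), against 5.34 (4.17 to 7.15) in shared V2 regions. The -log10 q, the authors' significance of each peak, had a median of 7.67 in V2-only regions (5.46 to 10.2, highest 32.3), against 14.1 (8.75 to 24.0) in shared V2 regions. The narrowest width in the lists, 359 bases, was that of 598 V2-only regions (11.1%), 907 shared V2 regions (2.68%) and 1627 sg3-only regions (6.21%). These widths and strengths come from the contrast that chose the regions, and they are given as a description.

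The stronger the V2 region, the lower was the V2-only share. It was 34.1% below a -log10 q of 5, 25.3% from 5 to 10, 9.99% from 10 to 20 and 0.793% from 20 to 40, where 61 of 7692 regions were V2-only. At 40 or more, 0 of 3453 V2 regions were V2-only, where a limit of 3 counts allows a share of up to 0.0869%. By width the share was 31.7% under 400 bases and 0.689% at 1000 bases or more, where 50 regions were V2-only. Within ranges of -log10 q the V2-only regions had the higher median fold enrichment, 4.43 in V2-only and 4.21 in shared V2 regions from 5 to 10, 5.93 and 5.33 from 10 to 20, and 8.40 and 7.16 from 20 to 40.

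The edge of the rule was set by single bases. The V2-only regions nearest to an sg3 record lay in BTG4 (chr11:111436219-111436615) and in POLK, each 10 bases away, followed by regions at ESYT2 with 16, TNS4 with 18 and ARF6 with 19. Just inside the shared class, a V2 region in SLC27A1 (chr19:17473659-17474140) overlapped an sg3 record by 4 bases and one in NSMCE2 by 5. In all, 64 V2-only regions had a gap of at most 100 bases, and 72 shared V2 regions had at most 100 bases of overlap.

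Most V2-only regions lay close to a region that the sg3 list did hold. The gap to the nearest sg3 record had a median of 1419.5 bases (interquartile range 581 to 3953), against 2508 bases from an sg3-only region to the nearest V2 record. An sg3 record lay within 1 kb of 2151 V2-only regions (39.8%) and within 5 kb of 4243 (78.5%), whereas 31.1% of sg3-only regions had a V2 record within 1 kb and 60.3% within 5 kb. Only 142 V2-only regions (2.63%, interval 2.22 to 3.09%) were more than 100 kb from any sg3 record, against 2383 sg3-only regions (9.09%). The sg3 list is the longer, which by itself shortens the gaps measured to it.

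**Figure D1:**
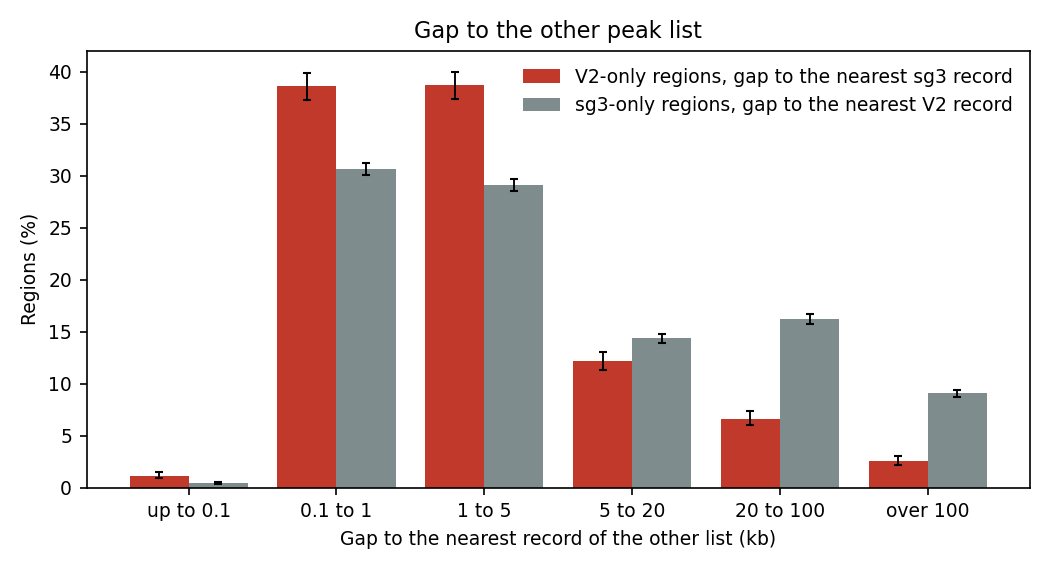
Share of regions (y axis, %) by the gap to the nearest record of the other list (x axis, kb), for V2-only regions (red) and sg3-only regions (grey), with exact 95% intervals of counting error as error bars. V2-only regions are mostly 0.1 to 5 kb away, and 2.63% of them are over 100 kb away against 9.09% of sg3-only regions.

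Within 5 kb the nearest sg3 record overlapped another V2 record slightly more often than sg3 records in general, and at wider gaps less often. Where it lay within 5 kb this was so in 2352 of 4243 cases (55.4%), against 52.5% of all sg3 records. Among these, the closest, with gaps of up to 100 bases, had 26 of 64 (40.6%, interval 28.5 to 53.6%). The share was 47.6% at gaps of 5 to 20 kb, 38.4% at 20 to 100 kb and 41.5% beyond. V2-only regions had sg3 records within 5 kb on both sides in 1545 cases (28.6%), on 1 side in 2698 (49.9%) and on neither in 1159 (21.5%). Their own list was sparser around them, since the nearest other V2 record was a median of 2142.5 bases from a V2-only region and 617 bases from a shared V2 region. Within 50 kb of a V2-only region there was a median of 7 V2 and 9 sg3 records, against 10 V2 and 13 sg3 records around a shared V2 region.

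By placement, V2-only regions were less frequent at the ends of genes than either other set. A midpoint within 1 kb of either outer end of a protein-coding gene was found for 182 V2-only regions (3.37%, interval 2.90 to 3.89%), against 16.3% of shared V2 regions and 18.5% of sg3-only regions. This window takes up 2.40% of the bases of these chromosomes. Elsewhere in a gene body lay 2475 V2-only regions (45.8%), against 39.7% of shared V2 and 41.0% of sg3-only regions, with 40.3% of bases. Outside protein-coding genes lay 2745 (50.8%), against 44.1% of shared V2 and 40.4% of sg3-only regions, with 57.4% of bases. Those outside genes were a median of 27418 bases from the nearest gene, against 23881 for shared V2 and 31994 for sg3-only regions.

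**Figure D2:**
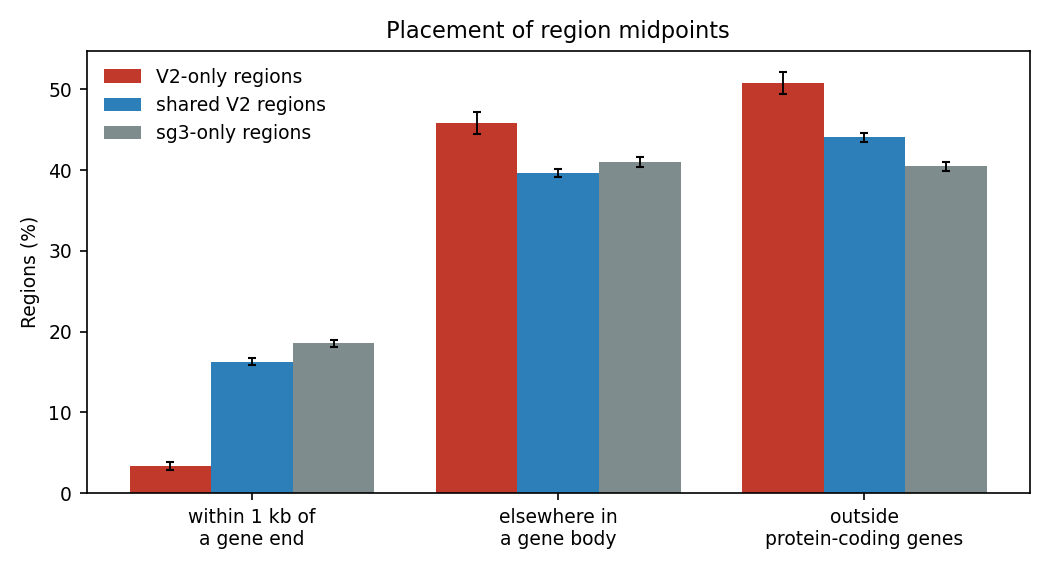
Share of regions (y axis, %) in 3 placement classes (x axis) for V2-only (red), shared V2 (blue) and sg3-only (grey) regions, with exact 95% intervals of counting error. At gene ends the V2-only bar stands at 3.37% against 16.3% and 18.5% for the other sets.

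The same held for annotated starts, which the promoter windows give with strand. Within 1 kb of a start lay 118 of 5070 V2-only regions (2.33%), against 15.0% of shared V2 and 16.7% of sg3-only regions. Chromosome 8 was not used here, and on the other chromosomes 82.1% of genes had a window. Within 1 kb of the other end of a gene, with no start near, lay 46 V2-only regions (0.907%), against 1.19% of shared V2 and 1.63% of sg3-only regions. The window itself, 300 bases, was overlapped by 31 of 5070 V2-only regions (0.611%), against 8.34% of shared V2 and 9.42% of sg3-only regions.

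Strength moved with placement, so the gene-end share was also read within ranges of -log10 q. It was 3.49% of V2-only and 11.8% of shared V2 regions below 5, 2.99% and 12.3% from 5 to 10, and 3.67% and 17.7% from 10 to 20. From 20 to 40 it was 13.1% of V2-only regions, 8 of 61 with an interval of 5.84 to 24.2%, and 20.9% of shared V2 regions, which lies inside that interval. In ranges of width the share at gene ends was 2.83 to 4.18% of V2-only regions up to 1000 bases, against 15.9 to 21.6% of shared V2 regions.

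The V2-only share was higher farther from gene ends. Of V2 regions with a midpoint less than 0.5 kb from an end 2.09% were V2-only, then 5.08% from 0.5 to 1 kb, 11.1% from 1 to 2.5 kb and 13.9% from 2.5 to 5 kb. Farther out it was 15.0% from 5 to 10 kb, 15.7% from 10 to 50 kb, 16.5% from 50 to 100 kb, 18.6% from 100 to 500 kb and 19.5% beyond, where 43 of 221 regions were V2-only. Within ranges of strength it also went up to 500 kb, from 5.56% below 0.5 kb to 30.7% at 100 to 500 kb for a -log10 q of 5 to 10, and from 1.74% to 16.0% for 10 to 20. Beyond 500 kb it was 29.5% (23 of 78) and 14.9% (11 of 74) in these ranges. Longer genes carried a higher V2-only share, with 6.34% of V2 regions in genes under 20 kb, 12.7% at 50 to 100 kb and 18.0% at 500 kb or more. Without the gene ends the slope with length was flatter, from 11.8% to 18.2%.

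**Figure D3:**
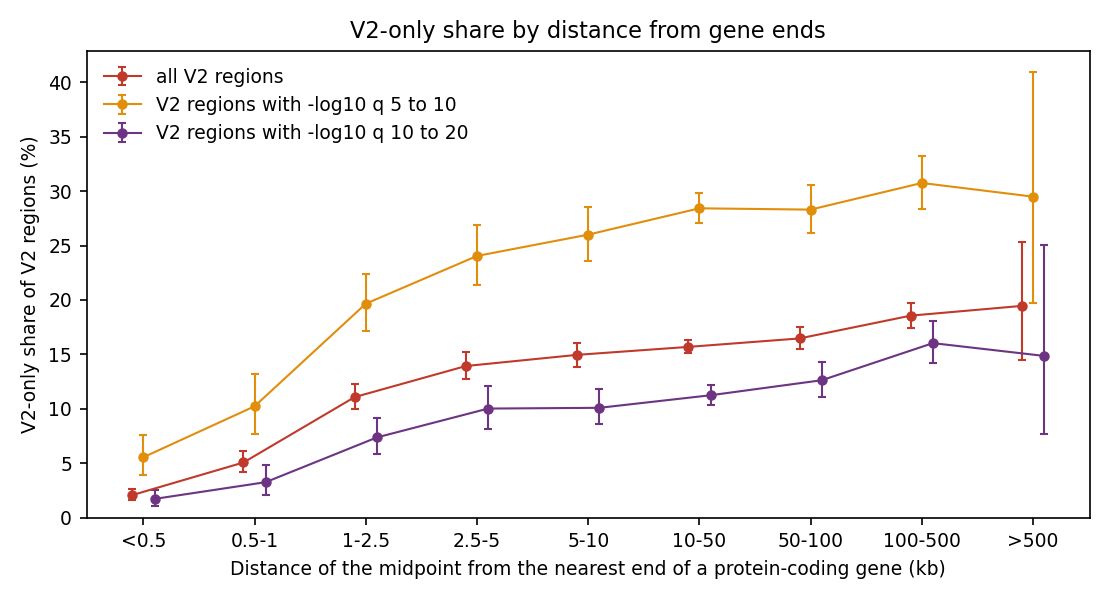
V2-only share of V2 regions (y axis, %) by distance of the midpoint from the nearest end of a protein-coding gene (x axis, kb), for all V2 regions and for those with a -log10 q of 5 to 10 or 10 to 20, with exact 95% intervals of counting error. All V2 regions go from 2.09% next to a gene end to 18.6% at 100 to 500 kb, and both strength ranges slope the same way up to there.

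The strongest V2-only regions were placed much like the rest, with more at gene ends. Of 61 with a -log10 q of 20 or more, 29 lay outside genes, 24 in a gene body and 8 at a gene end, and 47 (77.0%) had an sg3 record within 5 kb. The highest -log10 q, 32.3, belonged to chr15:66842584-66843039, 59962 bases from SMAD6, an inhibitor of BMP signalling, where the signal was 5.44 times background. Its nearest sg3 record was 39827 bases away. The next, with 32.0 and a fold enrichment of 11.7, was at an end of CD109 (chr6:73679539-73680111), a membrane protein that binds TGF-beta receptors.

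The RBPJ region shown above (chr4:26320970-26321611) was the third, at a -log10 q of 31.2 and 6.14 times background. An sg3 record lay 500 bases from it (chr4:26319795-26320469), at 6.68 times background and a -log10 q of 28.5 in its own list. That record overlapped a second V2 record, so both lists marked this start within 1 kb, at neighbouring places. Next came regions outside genes with -log10 q from 27.4 to 30.4. Their nearest genes were DES, which encodes the muscle filament desmin, AADAC, an esterase, TPRG1, MAP3K21, a kinase, and STC2, a secreted glycoprotein. The distances were 3151 bases for DES, 10213 for AADAC, 59503 for TPRG1, 41528 for MAP3K21 and 129969 for STC2. The highest fold enrichment of all V2-only regions, 13.2, was the one near AADAC (chr3:151838429-151838974).

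At gene ends, the regions at SNRK and RAB35 stood farthest from the sg3 list among the 10 strongest. The SNRK region (chr3:43286578-43287173) reached 5.79 times background at a -log10 q of 25.6, with the nearest sg3 record 334227 bases away. RAB35 had V2-only regions on both sides of its start, chr12:120116358-120116725 at 4.77 times background (-log10 q 26.8) and chr12:120117150-120117515 at 3.16 times (-log10 q 10.8). The nearest sg3 record to the first was 30695 bases away, and no sg3 record lay in the gene or within 1 kb of it. The regions at WWP2 and at CTNNBIP1, an inhibitor of beta-catenin, were 7387 and 11858 bases from an sg3 record.

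The other 6 had an sg3 record nearer by. The gaps were 439 bases at GAREM1, an adaptor of growth factor receptors, 474 at CD109 and 494 at LRR1, a ubiquitin ligase subunit. The gap was 529 bases at the overlapping genes SLC5A3, a myo-inositol transporter, and MRPS6. The last gaps were 1048 bases at UBXN7, a cofactor of the unfoldase p97, and 3076 at H2AZ1, a histone variant gene. So a V2-only region at a gene end could sit beside an sg3 record of the same gene end, as at LRR1, where that record had a -log10 q of 18.9 in its own list.

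Of the 10 V2-only regions farthest from sg3, 5 lay in gene bodies and 5 outside genes. The farthest lay in CNTN1 (chr12:40698265-40698684), which encodes a neuronal adhesion molecule, with 1255144 bases to the nearest sg3 record, 8.40 times background and a -log10 q of 20.7. The next, 941655 bases from FAT4, a large cadherin gene, was 1188088 bases from an sg3 record. In KITLG, which encodes the ligand of the receptor KIT, the gap was 664393 bases. In NOX4, an NADPH oxidase, it was 838874 bases, with a -log10 q of 4.30. The other 6 of the 10 farthest had gaps of 529338 to 734230 bases. Of these, 1 lay in TENM3 and 1 in CPS1. The rest lay outside genes, 499755 bases from CCDC179, 503223 from NRSN1, 44717 from CHST9 and 13562 from IL13RA2. Regions more than 100 kb from sg3 made up 12 of the 182 at gene ends (6.59%), 2.06% of those in gene bodies and 2.88% of those outside genes.

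Genes with several V2-only regions were long. A V2-only midpoint lay in the body of 1571 protein-coding genes, 2 or more in 527, 3 or more in 226 (1.13% of all 19974) and 5 or more in 67. The 226 genes had a median length of 174 kb, against 87.7 kb for genes with 1 or 2 V2-only regions, 33.3 kb for genes with V2 regions and no V2-only ones, and 24.2 kb for all protein-coding genes. All 226 also held an sg3 midpoint, and 114 of them held more sg3 than V2 midpoints. In 338 genes the V2-only regions were the gene's only V2 regions, and 135 of these held no sg3 midpoint.

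RAD51B, a gene of homologous recombination, held the most, with 20 V2-only regions among 71 V2 regions (28.2%) over 863 kb, beside 105 sg3 records. They were spread over 719 kb, with -log10 q from 3.24 to 13.1. MAML2, a NOTCH coactivator, held 13 of 55, AOPEP, an aminopeptidase, 11 of 85, and ABCC4, a drug and cyclic nucleotide exporter, 10 of 48. PRKCH, an epithelial protein kinase C, and PDE4D, a cAMP phosphodiesterase, held 9 of 33 and 9 of 32, and HSF2BP, a partner of BRCA2 in meiosis, held 9 of 68. Each of these genes also held shared V2 regions. In ABCC4, 7 of the 10 V2-only regions formed a run with no shared V2 region between them.

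Among the 10 genes with most V2-only regions, PTPN14 and IKZF3 were those with nearly as many V2-only as shared regions. Some genes with fewer V2-only regions had a higher share. Picked out after their values were seen, TANGO6 had 8 of 16, and TMED10 and FBXO42 had 7 of 13 each. PTPN14, a phosphatase that restrains YAP, had 10 of 21 (47.6%, interval 25.7 to 70.2%) beside 20 sg3 records, 10 of them sg3-only. The strongest, chr1:214407159-214407629, reached 10.03 times background (-log10 q 21.4). IKZF3, a lymphoid zinc-finger factor, had 9 of 19 beside 9 sg3 records. GTF2IRD2 had 8 of 24, but near-identical copies of this gene lie on the same chromosome and reads could have been divided among them, so its count is uncertain. Among genes with no shared V2 region, CPM, a carboxypeptidase, had the most, 4 V2-only regions beside 1 sg3 record. LDHC, the testis form of lactate dehydrogenase, was picked out after its values were seen, with 2 V2-only regions (chr11:18419858-18420216 and chr11:18421526-18421911) and no sg3 record.

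**Figure D4:**
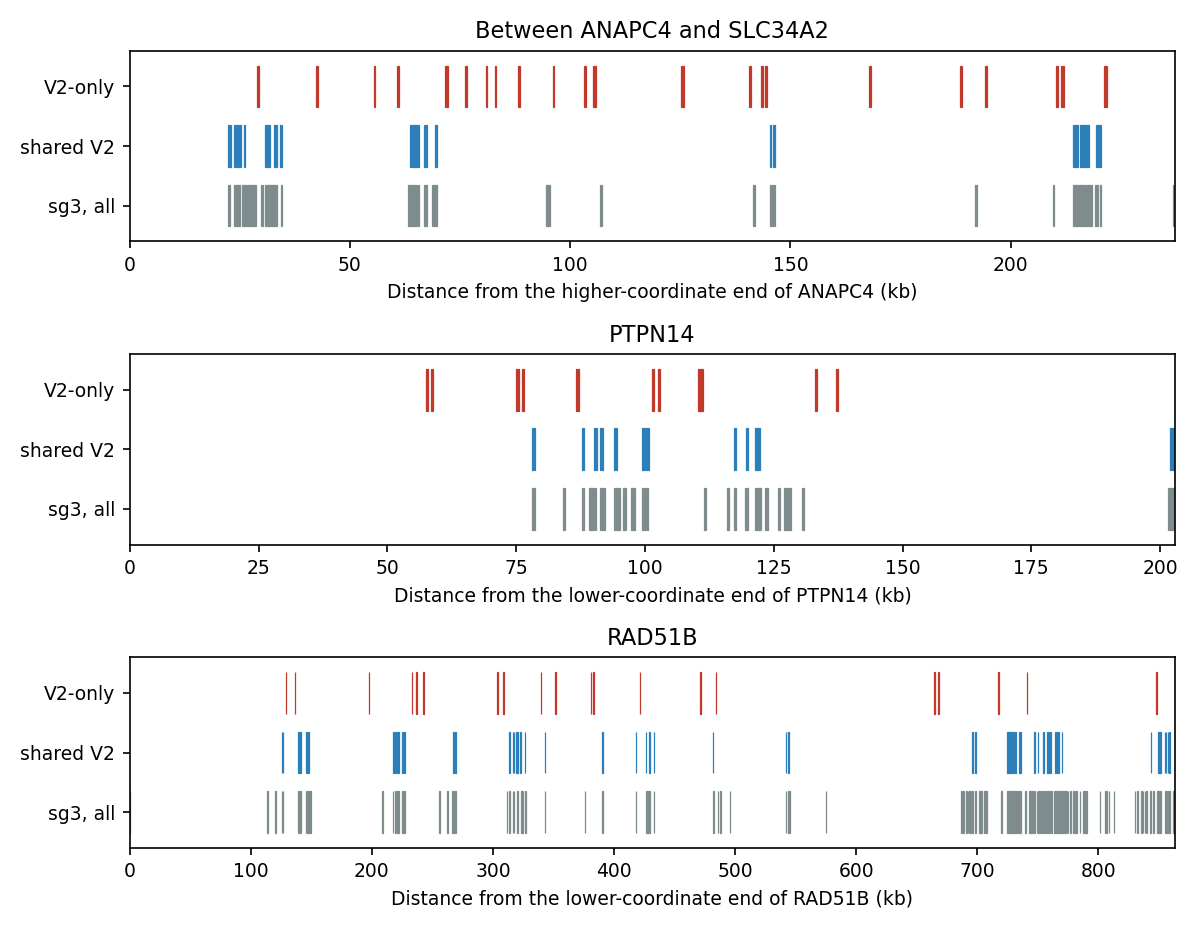
Records along 3 stretches (x axis, distance in kb), with V2-only regions (red, top row), shared V2 regions (blue) and all sg3 records (grey) drawn to scale. V2-only regions lie between and beside the shared regions in the stretch between ANAPC4 and SLC34A2, in PTPN14 and in RAD51B.

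Runs of V2-only regions were counted along the V2 list, with no shared V2 region between them and no limit on distance. Runs of 2 or more held 2336 V2-only regions (43.2%), and 3066 stood alone. Some runs arise from the V2-only share by itself, and whether there were more than that gives was not tested. In all, 80 runs had 4 or more, and 21 of those 80 had no sg3 record within the span. The runs of 5 or more spanned 8.10 to 2457 kb, so some were loose. The longest run was 12 regions over 73.0 kb (chr4:25490127-25563169), in a stretch free of protein-coding genes between ANAPC4, a subunit of the anaphase-promoting complex, and SLC34A2, a phosphate transporter. Its regions had -log10 q from 3.85 to 13.7 and fold enrichment from 3.19 to 7.88, and 4 sg3 records lay within the run, all sg3-only. The next longest was a run of 7 in ABCC4 over 32.4 kb.

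Runs of 6 with no sg3 record inside lay near GPCPD1 over 9.32 kb and near PPP1CB over 12.4 kb. PPP1CB encodes a catalytic subunit of protein phosphatase 1, and the run beside it had -log10 q of 7.48 to 23.2. A run of 5 near RAP2B, a RAS-like GTPase, spanned 8.10 kb with no sg3 record. Another run of 5, chr8:127705782-127721440, lay 14222 to 29427 bases from MYC with 1 sg3 record in its span. Its -log10 q ranged from 5.87 to 13.0.

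The stretch with the longest run lay in the window with the highest V2-only share. In 435 windows of 5 Mb with at least 20 V2 regions the V2-only share had a median of 13.9% (interquartile range 10.3 to 19.0%). The highest was 24 of 47 (51.1%, interval 36.1 to 65.9%) in the window of chromosome 4 that holds ANAPC4, SLC34A2 and RBPJ. Of these, 22 lay in 200 kb (chr4:25440780-25640467), where the V2 list had 38 regions over 23416 bases and the sg3 list 25 records, 8 of them sg3-only, over 20634 bases. So both lists marked this stretch over a similar length, at partly different places. The next windows were on chromosome 11 with 9 of 22, on chromosome 7 with 11 of 27, on chromosome 2 with 8 of 21 and on chromosome 8 with 13 of 39.

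By chromosome the V2-only share was lowest on chromosome 19, at 10.1%, and highest on chromosome 4, at 17.9% (interval 15.9 to 20.1%).

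**Figure D5:**
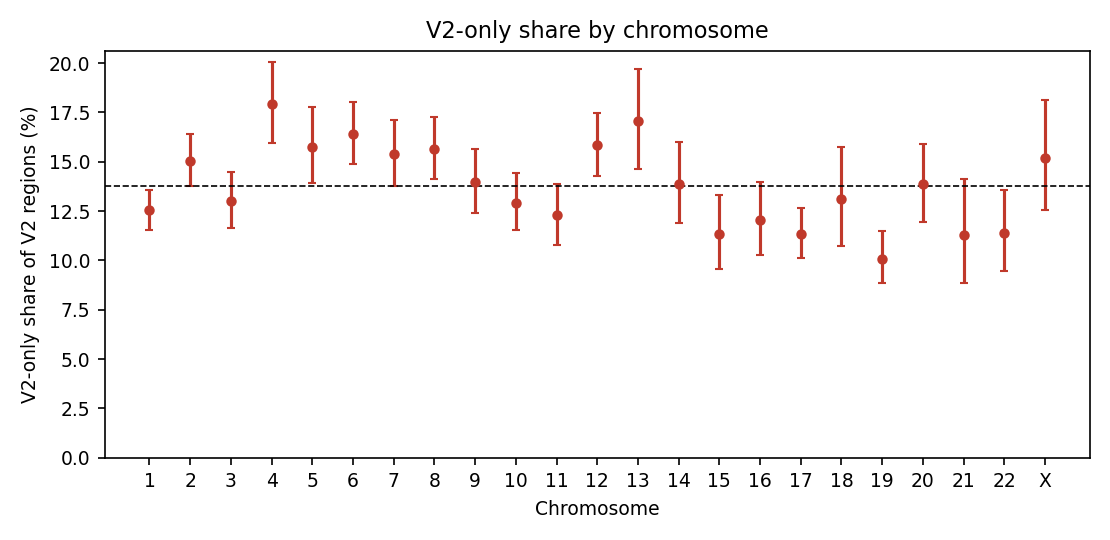
V2-only share of V2 regions (y axis, %) on chromosomes 1 to 22 and X (x axis), with exact 95% intervals of counting error and a dashed line at 13.8% for all chromosomes. Chromosome 19 is lowest at 10.1% and chromosome 4 highest at 17.9%.

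Pathway lists were read by the number of members with a V2-only region in the body or within 1 kb of it, a count that 1670 of 19974 protein-coding genes (8.36%) reach. Over 12 lists of 25 genes, 62 of 300 members reached it (20.7%), and the 300 members were longer than most genes, with a median of 60.0 kb against 24.2 kb for all. Of the 62, 59 also had an sg3 record. Since the count grows with gene length and with the number of V2 regions, the V2-only share of the list's V2 regions is given beside it, which over all genes was 12.1% (2671 of 22089).

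The Hippo pathway, the kinase cascade that holds back YAP and TAZ, had 8 of 25 members with V2-only regions and the highest share of the 12 functional lists, 25 of 110 V2 regions (22.7%, interval 15.3 to 31.7%). PTPN14 gave 10 of these, and without it the share was 15 of 89 (16.9%, interval 9.75 to 26.3%). That interval holds the 12.1% of all genes. The others were TEAD1, the DNA-binding partner of YAP, with 4 V2-only regions, WWTR1, which encodes TAZ, with 3, TNIK with 3, the kinase STK3 with 2, and NF2, YAP1 and WWC1 with 1 each. YAP1 had 2 shared regions and 3 sg3 records beside its V2-only region, which had a -log10 q of 4.07. All 8 also had sg3 records, and WWC1 was the 1 with no shared V2 region.

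Genes of the actin cytoskeleton and its regulators had most members with a V2-only region, 13 of 25, but an ordinary share, 18 of 188 V2 regions (9.57%), and their median length was 230 kb. DOCK1, an activator of RAC, was the member with no sg3 record. Its region (chr10:126905574-126905995) lay at the gene's start, 3.82 times background at a -log10 q of 15.7, with 480959 bases to the nearest sg3 record. ACTN1, which crosslinks actin filaments, had 1 V2-only region beside 10 shared ones.

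Cell adhesion and matrix genes had 11 of 25 members with a V2-only region and 19 of 128 V2 regions (14.8%). MAGI1, a scaffold of tight junctions, held 7 of the 19 beside 10 shared regions, with a highest -log10 q of 18.0. PARD3, a cell polarity scaffold, had 2 beside 11 shared regions, and ITGA6, an integrin of hemidesmosomes, 1 beside 14. Membrane traffic had 8 of 25 members and 12 of 89 V2 regions (13.5%), with RAB35 the member without sg3. SNX9, a sorting nexin of endocytosis, had 3 V2-only and 3 shared regions.

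Genes of EGFR and RAS signalling had 0 of 25 members with a V2-only region, and 0 of 71 V2 regions, where a limit of 3 counts allows up to 4.23%. In the squamous list 3 of 25 members had one, TP63, the master factor of squamous cells, with 7 of 32 V2 regions, and GRHL3 and GRHL2, transcription factors of epithelial barrier genes. The share of the squamous list was 9 of 106 V2 regions (8.49%). TGF-beta and WNT genes had 6 of 25 members and 10 of 94 V2 regions (10.6%), among them the WNT repressor TCF7L1, the BMP receptor BMPR2 and AXIN1, a scaffold of the beta-catenin destruction complex. Chromatin regulators had 4 of 25 members and 7 of 68 V2 regions (10.3%). The nuclear receptor coactivator NCOA1 had 1 V2-only region at a -log10 q of 13.4 and no sg3 record, and its relative NCOA2 had 4 V2-only regions, 5 shared ones and 13 sg3 records.

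The lists tied to lactate, growth and stress had 1 to 3 members each with a V2-only region, 4 to 12% of members, which is near the 8.36% of all genes. In the list of lactylation writers, erasers and lactate genes 2 of 25 members had one, SLC16A3, a lactate exporter, and CREBBP, an acyltransferase, giving 2 of 36 V2 regions (5.56%). The regions had -log10 q of 6.49 and 2.04, the second close to the lowest in the list. Immediate-early and AP-1 genes had 3 of 25, ATF3 with 2 V2-only regions, BACH2 with 4 and FOSL1 with 1, beside 14, 12 and 2 shared ones, which made 7 of the list's 77 V2 regions (9.09%). Hypoxia and angiogenesis had 3 of 25, VEGFB, NRP2 and P4HA1, and 3 of 41 V2 regions (7.32%). The cell cycle list had CDK6 alone, with 3 V2-only and 15 shared regions, and also 3 of 41 (7.32%). Median gene length ran from 7.52 kb in the immediate-early list to 52.7 kb in the hypoxia list. Of 25 markers of liver, neuron, blood, muscle, fibroblast and endothelium, 3 had a V2-only region, the long genes DMD, GRIN2B and SYT1.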

How the data were processed

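H3K9la ChIP-seq and input libraries of KYSE30 were prepared for the arms V2 and sg3, 1 of each per arm. Per the submitters' processing notes, the tools were MACS2 2.2.9.1, Bowtie2 2.5.1, SAMtools 1.18, Trim Galore 0.6.10 and FastQC 0.12.1, with build hg38. The authors deposited 1 narrowPeak list per arm, each taken as called on 1 library. Its fold enrichment is a ratio, and the −log10 p and −log10 q are also the authors' values. The deposited integer score was not used. The deposited summit offset was used for position. The sources used here give neither depth, nor the control library, nor the command line, and the IgG control named in the series description was not analysed here.

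Records were compared with Python 3.11.15, pandas 2.3.3, numpy 2.4.6 and scipy 1.17.1. A shared base counted as overlap. Midpoints were placed on 19974 RefSeq GRCh38.p14 protein-coding genes, and the overlap and placement code was checked on simulated lists. The genes were chosen by biotype and chromosome name only. Any gene listed with coordinates of an alternate sequence was not screened out and could be misplaced. Named were the 10 V2-only regions with the highest −log10 q, the 10 at gene ends, the 10 farthest from sg3, the 10 genes with most V2-only regions, and members of 12 functional lists and 5 marker lists. A gene that this rule takes is not reported here. Members and lists were chosen with earlier results of these data known. Alternatives changed the overlap rule, the thresholds on −log10 q and fold enrichment, list length, merging and the gene window.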

Additional observations from a re-analysis of the deposited data

Results flagged for a closer look

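Contigs outside chromosomes 1 to 22 and X were not part of the comparisons. There, 118 of 1074 V2 records (10.99%, interval 9.18 to 13.0%) overlapped no sg3 record, a signal in data left out of the report. With these contigs included, 5520 of 40332 V2 records (13.7%) were V2-only.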

How the results depend on the processing

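Of 102 values recomputed under alternatives, 59 stayed within their counting interval or within 1.5 times the count, and 43 moved. The gene window of 2.5 kb and placement by summit changed only how regions were placed. Under them the V2-only count, its share and the gaps to sg3 could not move, and these values are among the 59. Requiring a −log10 q of at least 10 in V2 left 1395 V2-only regions (5.70%), 23 genes with 3 or more, a median gap to sg3 of 1217 bases, 43.6% within 1 kb of sg3 and 4.09% at gene ends, and at least 5 gave 12.01%. With the sg3 list cut to the V2 length, 9109 regions (23.2%) were V2-only, with 436 such genes, a gap of 1753 bases, 34.8% within 1 kb and 3.92% at gene ends. Counting an sg3 record within 1 kb as shared left 3251 (8.28%), 106 genes, a gap of 3050 bases and 30333 bases to the nearest gene outside genes. Within 5 kb it left 1159 (2.95%), 15 genes, 15968 and 43758 bases, with 4.83% at gene ends, 47.8% in bodies and 47.4% outside. The share within 1 kb of sg3 is 0 by construction under those 2 rules and was not given. Where 50% of the V2 record had to be covered, 15.4% were V2-only, with a gap of 1156 bases and 46.4% within 1 kb. With records within 1 kb merged, 16.8% were V2-only, with 125 genes, a gap of 2125 bases, 24.3% within 1 kb and 30613 bases to a gene. With fold enrichment of at least 4 in both lists, 22.9% were V2-only, with a gap of 1498 bases, 43.9% in bodies and 52.3% outside. A gene window of 2.5 kb put 9.46% at gene ends, 42.9% in bodies and 47.6% outside, 31276.5 bases from a gene. Annotated starts, chosen after seeing the data, gave 2.33%. Apart from what each rule sets by construction, the cause was not tested. No paired analysis was possible because each arm has 1 list and the labels carry no replicate numbers. Depth is unknown, so weak regions near the calling threshold cannot be told from regions missed in sg3.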
